A study of Mus musculus with 9 samples.

Results

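The genes described here are 10 genes of the NRF2 and glutathione defense against oxidative stress: Nfe2l2, Keap1, Gclc, Gclm, Gsr, Txnrd1, Srxn1, Nqo1, Hmox1 and Sod2. They were chosen by name from a count table of 15384 mouse genes, all 10 are in the table, and 9 of them passed the filter on low counts. The exception was Nqo1, with 0 to 7 counts per library. In MyC-CaP cells collected after 24 hours with asporin (ASPN), Hmox1 mRNA was 2.78-fold higher than at time 0, while Gsr mRNA was at 0.664 of its level at time 0. Gsr, unlike Hmox1, lost its call with DESeq2, RLE or upper-quartile factors and in 4 of 6 fits that left out 1 library. At 24 hours 28.8% of all tested genes passed the same threshold, and at 12 hours 0 of the 9 and 1.60% of all tested genes did.

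MyC-CaP is a cell line from a mouse prostate cancer, and ASPN is a protein secreted by fibroblasts of the tumor stroma. To follow the response to ASPN, cells starved for 6 to 12 hours in medium without serum and calcium were given recombinant mouse ASPN at 100 ng/mL. RNA was sequenced from 3 libraries each of 0, 12 and 24 hours. The sample labels name ASPN as the treatment of all 9 libraries, those of 0 hours included, which are called time 0 here. No library of 12 or 24 hours with buffer alone is among the 9, so ASPN and the hours in culture cannot be told apart. The labels call the libraries of a time biological replicates and describe wells of 1 line plated in triplicate, so the p-values measure the spread between these wells.

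NRF2, the protein of Nfe2l2, is a transcription factor that pairs with small MAF proteins at antioxidant response elements in the DNA. In unstressed cells KEAP1 holds NRF2 and passes it to a CUL3 ubiquitin ligase for degradation, and oxidants or electrophiles that modify KEAP1 let NRF2 accumulate. NRF2 is thus controlled largely at the protein level, which mRNA counts do not measure, and its best known targets make and recycle glutathione, run the thioredoxin system and break down quinones and heme. In human prostate cancer, loss of the glutathione transferase GSTP1 is a well known feature. MyC-CaP cells derive from a mouse tumor driven by a MYC transgene under a probasin promoter.

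Libraries held 41881191 to 52993821 counts, and 3 counts of a gene were worth 0.0566 to 0.0716 CPM, the unit of counts scaled to the library total. TMM factors, which correct library totals for differences in composition, were 1.04 to 1.07 at time 0 and at 12 hours and 0.898 to 0.911 at 24 hours. Of the epithelial markers, Krt8 and Krt19 were present at 24.8 to 145 CPM over the 9 libraries, whereas Epcam had 0 or 1 count, Cdh1 0 to 10 counts and Krt18 2 to 22 counts per library. The summed level of 3 endothelial markers was at most 0.183 CPM and that of 4 fibroblast markers 9.14 to 14.1 CPM, of which Pdgfra had 8.58 to 13.8 CPM, while Col1a1, Dcn and Aspn had at most 0.602 CPM each. Unless stated otherwise, values are CPM scaled with TMM factors, errors of levels are SD over 3 libraries, and errors of log2 fold changes are SE.

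Per kilobase of exon, the level of the 10 genes at time 0 was highest for Gclc (22.7 ± 1.26 CPM per kb, SD, n = 3) and Keap1 (21.5 ± 0.321). The ranges of these 2 genes overlapped. They were followed by Gsr (17.3), Srxn1 (12.6), Gclm (11.6), Nfe2l2 (10.2), Txnrd1 (9.31), Sod2 (5.44), Hmox1 (4.66) and Nqo1 (0.0499), and of these neighbors only Sod2 and Hmox1 overlapped between libraries. At 12 hours the order began with Keap1 and Gclc, and the neighbors that overlapped were Keap1 and Gclc, Nfe2l2 and Gclm, and Sod2 and Hmox1. At 24 hours Hmox1 stood at place 3 of the order with 12.9 ± 2.19 CPM per kb, after Keap1 (20.4) and Gclc (16.5) and overlapping with Gsr (11.5).

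**Figure D1:**
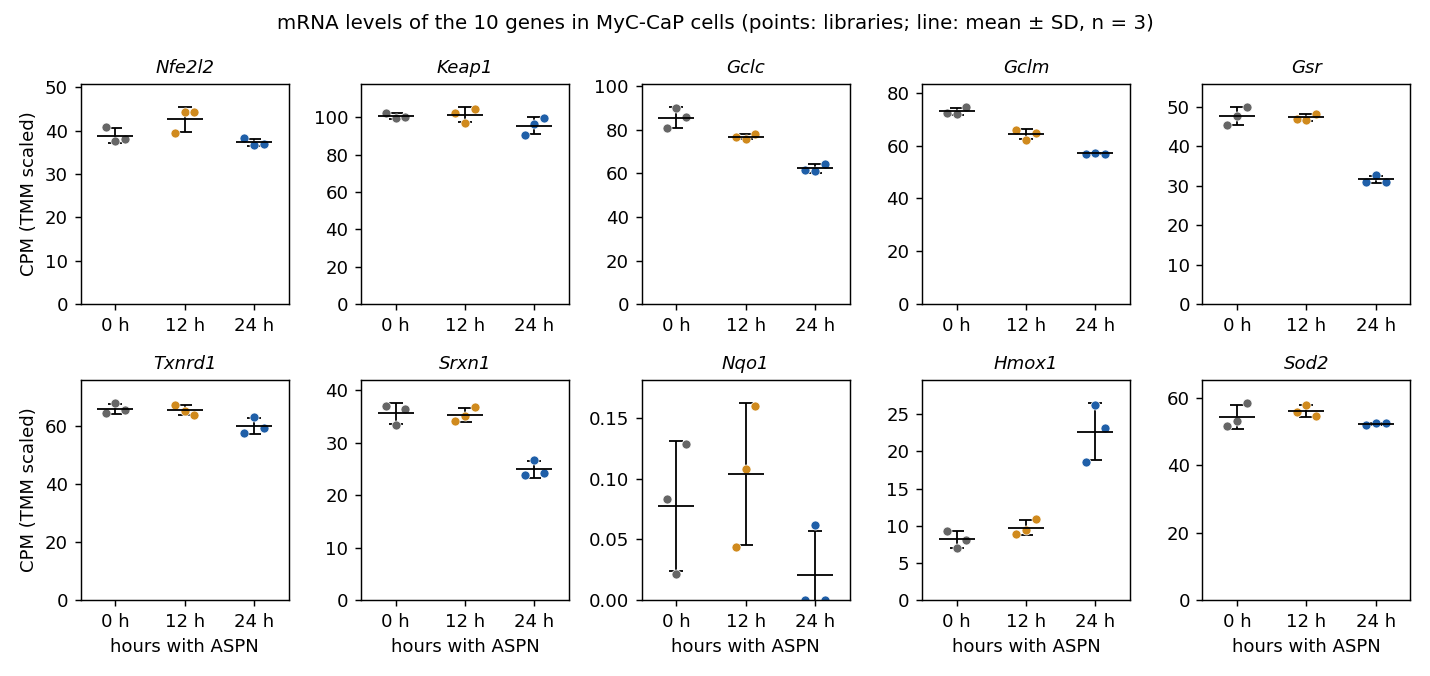
mRNA levels of the 10 genes in each library in CPM scaled with TMM factors (vertical axis, from 0, 1 panel per gene) against hours with ASPN. Points are libraries, horizontal lines are means and error bars are SD (n = 3). The 3 libraries of 24 hours lay above those of the other times for Hmox1 (18.6 to 26.2 CPM) and below them for Gclc, Gclm, Gsr, Txnrd1 and Srxn1, while Nqo1 stayed at or under 0.160 CPM.

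Promoter windows from RefSeq (GRCm38.p6) were matched for 7 of the 10 genes (Nfe2l2, Keap1, Nqo1, Gclm, Txnrd1, Srxn1 and Sod2). Shown are the 250 bases before the start of Srxn1, the gene with the most motif matches, and of Gclm, both of which had lower mRNA at 24 hours. Capitals mark matches to the core antioxidant response element TGACNNNGC, to the AP-1 motif TGANTCA and to TGAGNNNGC, a variant of the element, each searched on both strands. The form TGAGNNNGC was added to the search after the data were seen.
Srxn1, chr2:152105274-152105523, plus strand: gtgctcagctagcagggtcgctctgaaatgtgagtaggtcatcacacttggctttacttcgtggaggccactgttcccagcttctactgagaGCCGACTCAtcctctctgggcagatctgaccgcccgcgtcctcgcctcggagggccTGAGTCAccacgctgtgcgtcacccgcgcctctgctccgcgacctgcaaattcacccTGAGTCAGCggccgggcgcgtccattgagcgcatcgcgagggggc
Gclm, chr3:122245307-122245556, plus strand: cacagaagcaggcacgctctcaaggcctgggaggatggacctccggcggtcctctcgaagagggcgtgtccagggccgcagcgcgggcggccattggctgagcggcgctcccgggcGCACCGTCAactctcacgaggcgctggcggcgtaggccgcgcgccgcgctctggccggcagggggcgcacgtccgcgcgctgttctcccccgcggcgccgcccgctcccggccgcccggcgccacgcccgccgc
In Srxn1, TGAGTCA began 102 bases before the start, TGAGTCAGC began 45 bases before it and holds a second AP-1 match, and GCCGACTCA, a TGAGNNNGC match on the reverse strand, began 158 bases before it. Srxn1 also had 1 reverse match to TGACNNNGC 28 bases past the start, outside the bases shown. In Gclm, GCACCGTCA, a reverse match to TGACNNNGC, began 134 bases before the start.

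TGACNNNGC was found in windows of 4 of the 7 genes (Gclm, Nfe2l2, Srxn1 and 1 of 3 windows of Txnrd1), and in 12.4% of all 32851 promoter windows. The AP-1 motif was found in 1 of the 7 genes and in 7.81% of all windows, and TGAGNNNGC likewise in Srxn1 alone and in 17.6% of all windows. An NF-kB motif was found for Keap1 and in 20.7% of all windows. The counts are of genes and the shares are of windows, and a gene can have several windows, so they are not like measures. A stretch after the start in the Nfe2l2 window was not found in the transcripts of Nfe2l2. These are matches of letters in 1 short window per start, and occupancy of the sites was not measured.

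Nfe2l2 (chr2:75675513-75704641, GRCm38, minus strand), which encodes NRF2, was measured at 40.8, 37.6 and 38.0 CPM at time 0. Its values were 39.4, 44.2 and 44.2 CPM at 12 hours. At 24 hours they were 38.2, 36.7 and 37.0 CPM. The 24-hour libraries lay below those of 12 hours, and either later time overlapped with time 0. The log2 difference was 0.14 ± 0.05 at 12 hours against time 0 (adjusted p = 0.117, from edgeR's quasi-likelihood fit after Benjamini-Hochberg adjustment, as throughout) and -0.06 ± 0.05 at 24 hours (adjusted p = 0.347). Between 12 and 24 hours Nfe2l2 was lower by a log2 difference of -0.17 ± 0.05 (edgeR adjusted p = 0.0125), which was 0.0622 without 12-hour replicate 2 and 0.0641 without 12-hour replicate 3. The 12-hour difference from time 0 had an edgeR adjusted p of 0.0443 with no filter on low counts, 0.0228 without time 0 replicate 1 and 0.0339 without 12-hour replicate 1. With total counts Nfe2l2 was at -0.28 at 24 hours against time 0 (edgeR adjusted p = 0.000334) and at -0.40 against 12 hours (edgeR adjusted p = 2.21e-05). No comparison reached a 1.5-fold change in the message of NRF2 itself.

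Keap1 (chr9:21229730-21239361, minus strand), the gene of the NRF2 inhibitor, had 102.4, 99.6 and 100.2 CPM at time 0. The 12-hour libraries had 102.5, 97.0 and 104.7 CPM. The 24-hour libraries had 90.8, 96.5 and 99.5 CPM, the highest of them next to the lowest library of time 0. The log2 difference was 0.01 ± 0.04 at 12 hours (edgeR adjusted p = 0.892) and -0.07 ± 0.04 at 24 hours (edgeR adjusted p = 0.15), so neither passed the test. Its direction at 24 hours depended on the scaling: -0.30 with total counts (adjusted p = 3.69e-05) and 0.18 with a correction for exon length and GC content (adjusted p = 0.00179, both edgeR), with adjusted p-values of 3.69e-05 to 0.377 over the 11 alternatives. Keap1 has the highest exonic GC content of the 10 genes (58.0%), and 510 of its exonic bases overlap the antisense gene Gm16754.

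Gclc and Gclm encode the catalytic and the modifier subunit of glutamate-cysteine ligase, the rate-limiting enzyme of glutathione synthesis, and both were lower at 12 and at 24 hours. For Gclc (chr9:77754535-77794485), CPM values were 80.7, 90.2 and 86.0 at time 0. They were 76.6, 75.9 and 78.0 at 12 hours. At 24 hours they were 61.5, 60.9 and 64.5. The ranges of the 3 times were separate and in descending order. Gclc was lower by a log2 difference of -0.15 ± 0.04 at 12 hours (edgeR adjusted p = 0.0175) and of -0.46 ± 0.05 at 24 hours, 0.728-fold (95% CI 0.676 to 0.785, edgeR adjusted p = 2.29e-06). The 12-hour adjusted p lay between 0.0607 and 0.0964 when time 0 replicate 2 or 3, or 12-hour replicate 1 or 2, was left out, whereas the 24-hour p was at most 2.3e-05 without any single library.

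For Gclm (chr3:122245557-122270732), CPM values were 72.2, 72.0 and 74.5 at time 0. They were 66.0, 62.2 and 64.8 at 12 hours, and 56.9, 57.4 and 56.9 at 24 hours. As for Gclc, the 3 times did not overlap. The log2 difference from time 0 was -0.18 ± 0.04 at 12 hours (edgeR adjusted p = 0.00326) and -0.35 ± 0.04 at 24 hours, 0.782-fold (95% CI 0.734 to 0.833, edgeR adjusted p = 5.11e-06). In the direct comparison of 24 with 12 hours Gclc differed by -0.28 ± 0.04 (edgeR adjusted p = 2.68e-05) and Gclm by -0.16 ± 0.04 (edgeR adjusted p = 0.00406). With TMM factors both subunits stayed short of a 1.5-fold change in all 3 comparisons, and Gclc passed it with total counts at 24 hours against time 0 (-0.68). A total of 540 exonic bases of Gclm overlap the genes Gm17494 and Gm6061, whose reads may be shared with it.

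Gsr encodes glutathione reductase, which returns oxidized glutathione to its reduced form with NADPH, and was 1 of 9 tested genes called lower at 24 hours, beside 16.8% of all tested genes. Gsr (chr8:33652523-33698163) had 45.3, 47.6 and 49.9 CPM at time 0. It had 47.0, 46.8 and 48.3 CPM at 12 hours, and 31.1, 32.8 and 31.0 CPM at 24 hours. The 24-hour libraries lay below all 6 others, while those of 12 hours fell within the range of time 0. The log2 difference was -0.01 ± 0.04 at 12 hours (95% CI -0.10 to 0.08, edgeR adjusted p = 0.957), -0.59 ± 0.05 at 24 hours against time 0 (0.664-fold, edgeR adjusted p = 4.35e-07) and -0.56 ± 0.05 at 24 against 12 hours (edgeR adjusted p = 1.75e-07), which passed 1.5-fold without 24-hour replicate 2 (-0.59). In bulk RNA, fewer cells that express a gene and less RNA per cell cannot be told apart.

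The 24-hour value of Gsr lay at the edge of the 1.5-fold threshold, a log2 change of 0.585. It was -0.58 with RLE factors or DESeq2 and -0.56 with upper-quartile factors, and it was -0.58, -0.54, -0.58 and -0.58 without time 0 replicate 2, time 0 replicate 3, 24-hour replicate 1 and 24-hour replicate 3, so the call was lost there through the fold and not through the adjusted p, which was at most 1.3e-05 without any single library (edgeR).

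Srxn1 encodes sulfiredoxin, which restores overoxidized peroxiredoxins. Srxn1 (chr2:152105516-152111376) was at 37.0, 33.4 and 36.4 CPM at time 0. It was at 34.2, 35.2 and 36.8 CPM at 12 hours, and at 23.8, 26.7 and 24.3 CPM at 24 hours. The later libraries again lay below all others, and those of time 0 and 12 hours overlapped. Srxn1 differed by -0.01 ± 0.05 on the log2 scale at 12 hours (edgeR adjusted p = 0.957) and by -0.51 ± 0.06 at 24 hours against time 0, 0.700-fold (95% CI 0.636 to 0.771, edgeR adjusted p = 8.04e-06). Between 12 and 24 hours the difference was -0.49 ± 0.06 (edgeR adjusted p = 6.06e-06), close to the difference from time 0, as it was for Gsr.

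Txnrd1 encodes cytosolic thioredoxin reductase, which keeps thioredoxin reduced. For Txnrd1 (chr10:82833951-82897712), CPM values were 64.5, 67.9 and 65.6 at time 0. They were 67.4, 65.3 and 64.0 at 12 hours, and 57.7, 63.0 and 59.3 at 24 hours. The highest library of 24 hours lay just under the lowest of 12 hours, and thus below all libraries of the other times. The 24-hour log2 difference was -0.14 ± 0.05 against time 0 (edgeR adjusted p = 0.0211) and -0.11 ± 0.04 against 12 hours (edgeR adjusted p = 0.0429), and at 12 hours it was -0.01 ± 0.04 (edgeR adjusted p = 0.953). With the correction for length and GC content, the 24-hour difference turned to 0.06 against time 0 (edgeR adjusted p = 0.237, with a range of 3.35e-05 to 0.271 over the 11 alternatives) and to 0.09 against 12 hours (edgeR adjusted p = 0.0944). The adjusted p of the comparison with time 0 was 0.062 to 0.106 without time 0 replicate 2 or 3 or 24-hour replicate 1 or 3, and that of the comparison with 12 hours was 0.0541 to 0.159 without any single library other than 24-hour replicate 2 and 0.057 with DESeq2.

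Nqo1 encodes a quinone reductase that is widely used as a readout of NRF2 activity. Nqo1 (chr8:107388225-107403206, minus strand) had 4, 1 and 7 counts at time 0, 2, 5 and 7 counts at 12 hours, and 0, 3 and 0 counts at 24 hours. It did not pass the filter on low counts, with 5 of its 9 libraries at or under 3 counts. With no filter its log2 difference was 0.36 ± 0.84 at 12 hours (edgeR adjusted p = 0.864) and -1.75 ± 1.25 at 24 hours (edgeR adjusted p = 0.252) against time 0, and -2.09 ± 1.20 at 24 against 12 hours (edgeR adjusted p = 0.145). The 24-hour level was 0.274 of that at time 0 (95% interval 0.0496 to 1.02, counting error only) and the 12-hour level 1.28 of it (0.550 to 3.03). Against 12 hours the 24-hour level was 0.214 (0.0394 to 0.766), from 3 and 14 counts in all, an interval that takes no account of the spread between libraries. A change in Nqo1 mRNA from time 0 was not detectable at this depth.

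Hmox1 encodes heme oxygenase, which cleaves heme into biliverdin, iron and carbon monoxide, and it responds to heme, oxidants and inflammatory signals as well as to NRF2. Hmox1 (chr8:75093621-75100589) was at 9.29, 7.03 and 8.15 CPM at time 0. At 12 hours it was at 8.90, 9.44 and 10.9 CPM. At 24 hours it was at 18.6, 26.2 and 23.1 CPM. The 24-hour libraries lay above all others, and those of 12 hours overlapped with time 0. The log2 difference at 24 hours was 1.47 ± 0.13 against time 0 (2.78-fold, 95% CI 2.30 to 3.35, edgeR adjusted p = 2.16e-07) and 1.24 ± 0.11 against 12 hours (2.36-fold, 95% CI 1.99 to 2.80, edgeR adjusted p = 4.46e-07). At 12 hours against time 0 it was 0.26 ± 0.11 (95% CI 0.03 to 0.49, edgeR adjusted p = 0.17, or 0.0214 without time 0 replicate 1).

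Against time 0, Hmox1 was called higher at 24 hours under all 11 other scalings, filters and tools, with log2 differences of at least 1.25, and without any single library, with 1.36 to 1.59. Against 12 hours it was also called in all of these, with log2 differences of at least 1.01. Macrophages are a rich source of Hmox1 mRNA, and whether immune cells contributed to its level was not tested. Of 5 immune markers, 3 are in the table (Cd68, Cd3e and Cd79a), whereas Ptprc and Adgre1 are not. The summed level of the 3 markers was 0.373 to 0.922 CPM at time 0, 0.372 to 0.666 CPM at 12 hours and 0.662 to 0.761 CPM at 24 hours. Most of it was Cd68 (0.588 to 0.664 CPM at 24 hours).

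Sod2 encodes the manganese superoxide dismutase of mitochondria, and its transcription is best known as a response to NF-kB. Sod2 (chr17:13006846-13040063) was at 51.7, 53.2 and 58.4 CPM at time 0. It was at 55.8, 58.0 and 54.6 CPM at 12 hours, and at 52.0, 52.5 and 52.5 CPM at 24 hours. The 24-hour libraries lay below those of 12 hours and within the range of time 0. The log2 difference from time 0 was 0.05 ± 0.05 at 12 hours (95% CI -0.05 to 0.14, edgeR adjusted p = 0.624) and -0.06 ± 0.05 at 24 hours (95% CI -0.17 to 0.06, edgeR adjusted p = 0.352). Between 12 and 24 hours it was -0.08 ± 0.04 (edgeR adjusted p = 0.0956). With total counts the 24-hour differences of Sod2 were -0.28 against time 0 (edgeR adjusted p = 0.000627) and -0.31 against 12 hours (edgeR adjusted p = 2.21e-05), and with the length and GC correction the latter was -0.14 (edgeR adjusted p = 0.0113).

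**Figure D2:**
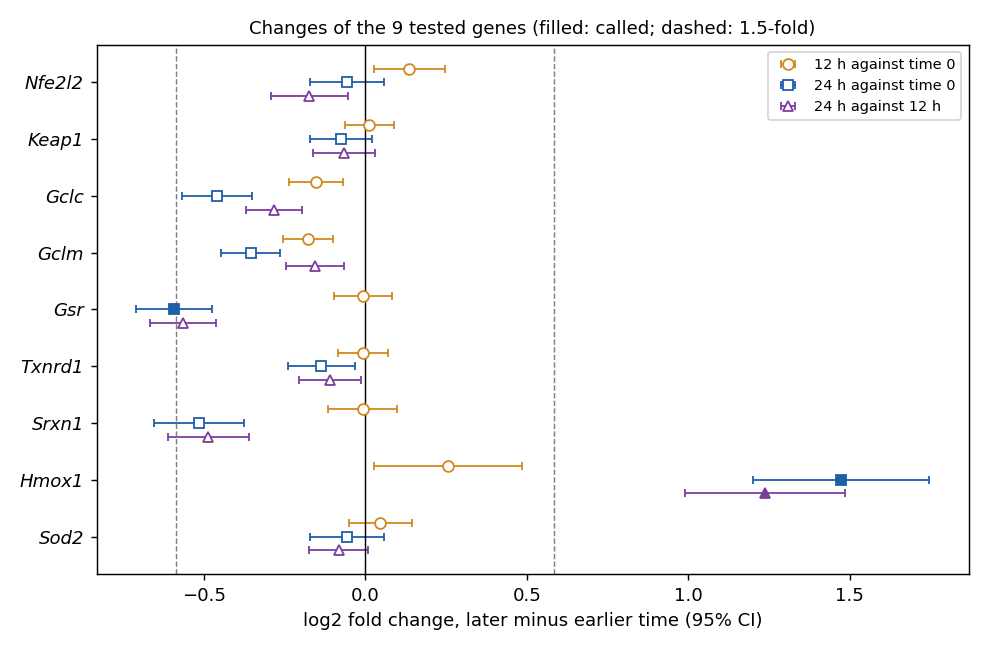
Log2 fold changes of the 9 tested genes, later minus earlier time, with 95% confidence intervals (horizontal axis) in the 3 comparisons. Filled symbols passed an adjusted p of 0.05 and a 1.5-fold change, and dashed lines mark 1.5-fold. Hmox1 lay at 1.47 and 1.24 in the 2 comparisons of 24 hours, Gsr lay next to the lower line, and the 12-hour values of all 9 genes lay between -0.18 and 0.26.

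Counted over the tested genes, 0 of 9 passed the adjusted p of 0.05 together with a 1.5-fold change at 12 hours against time 0, where 1.60% of all 11410 tested genes did. DESeq2 and limma-voom also called 0 of 9, and 4 of 9 had an unadjusted p under 0.05 with edgeR, beside 21.4% of all tested genes. On the adjusted p alone, 2 of 9 passed at 12 hours, both lower, beside 10.3% of all tested genes, with 3.47% lower and 6.85% higher. The ranges did not overlap for the same 2 genes, Gclc and Gclm, both below time 0, beside 27.1% of all tested genes, 13.4% below and 13.7% above. The median log2 difference of the 9 genes was -0.01, and that of all tested genes was -0.00.

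At 24 hours against time 0, 2 of 9 genes were called, Hmox1 higher and Gsr lower, beside 28.8% of all 11444 tested genes, 12.0% higher and 16.8% lower. On the adjusted p alone, 6 of 9 passed, 1 higher and 5 lower, beside 70.9% of all tested genes, 36.5% lower and 34.4% higher. For 7 of 9 genes the ranges did not overlap, 1 above and 6 below time 0, beside 74.0% of all tested genes, 35.9% above and 38.0% below. The totals were near those of the whole table, while more of the 9 genes lay below time 0 and fewer above it than in the whole table, a difference that was not tested. The median log2 difference was -0.14 over the 9 genes and -0.02 over all tested genes, and 8 of the 9 values were negative.

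At 24 hours against 12 hours, 1 of 9 genes was called, Hmox1, beside 25.7% of all 11394 tested genes, 10.4% higher and 15.3% lower. On the adjusted p alone 7 of 9 passed, 1 higher and 6 lower, beside 71.3% of all tested genes, 35.7% higher and 35.6% lower. The ranges did not overlap for 8 of 9, 1 above and 7 below 12 hours, beside 73.8% of all tested genes, 35.7% above and 38.1% below. The comparisons with time 0 share the time 0 libraries, and the other pairs of comparisons share those of 12 or 24 hours.

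Total counts in place of TMM factors moved the 24-hour values of the 9 genes down together, whereas the length and GC correction moved some up and others down. With total counts, the median of all tested genes at 24 hours against time 0 was -0.24, and the called genes among the 9 were Hmox1 higher (1.25) and Gclc (-0.68), Srxn1 (-0.74) and Gsr (-0.81) lower, beside 32.4% of all tested genes called. Relative to that shift, the differences of these genes were close to the values given above.

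**Figure D3:**
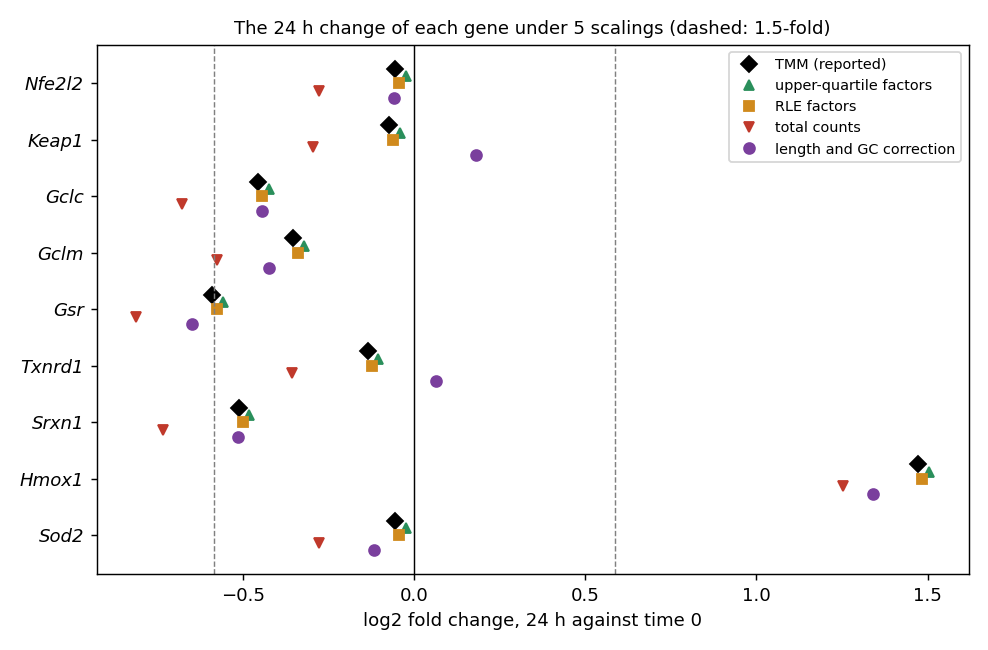
Log2 fold changes of the 9 tested genes at 24 hours against time 0 (horizontal axis) under 5 scalings, with dashed lines at 1.5-fold. Hmox1 lay at 1.25 or above and the values of Gclc, Gclm, Gsr and Srxn1 were negative under all 5, while Keap1 and Txnrd1 were positive with the correction for length and GC content (0.18 and 0.06) and negative under the others.

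Beside the 10 genes, 6 lists of other genes of the same biology were described. Together they hold 109 genes, of which 106 are in the table, and 90 were tested in either comparison with time 0. At 12 hours 1 of 90 was called (1.11%), and at 24 hours 15 were called higher and 10 lower (27.8%). At 24 against 12 hours 11 of 91 were higher and 10 lower (23.1%). In total these shares are near those of all tested genes in the same comparisons, which were 1.60%, 28.8% and 25.7%. By direction, 16.7% of the listed genes were called higher and 11.1% lower at 24 hours against time 0, beside 12.0% and 16.8% of all tested genes. The counts of 11 and 10 at 24 against 12 hours stand beside 10.4% higher and 15.3% lower. This balance turned with total counts, where 6 were called higher and 20 lower against time 0 and 4 higher and 13 lower against 12 hours. Calls over all tested genes also moved towards lower with total counts. Of all 11444 tested genes, 698 were then higher and 3008 lower against time 0. Of all 11394 tested against 12 hours, 484 were higher and 2830 lower.

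Of 13 tested genes that act on NRF2 or share its binding sites, 2 were called higher and 2 lower at 24 hours, with a list median of 0.01. With total counts 1 was called higher and 5 lower, with a median of -0.21, beside 698 higher and 3008 lower of all 11444 tested genes. Sqstm1 was lost there, and Nfe2l1, Mafg and Gsk3b were gained as lower. Gsk3b, a kinase that marks NRF2 for degradation (-0.74, or -0.52 with TMM factors), was named after its value was seen. Maff, a small MAF partner of NRF2, rose from 98.4 ± 3.80 CPM at time 0 to 122.7 ± 3.52 CPM at 12 hours and 229 ± 16.7 CPM at 24 hours (SD, n = 3), a log2 change of 1.22 ± 0.05 at 24 hours (edgeR adjusted p = 6.3e-10). Sqstm1, which encodes p62, an autophagy receptor that binds KEAP1, rose by 0.70 ± 0.05 (edgeR adjusted p = 6.74e-08), from 470.5 ± 28.1 to 762 ± 40.8 CPM, although its value was 0.48 with total counts. Bach1, a heme-binding repressor that competes with NRF2 at sites such as those of Hmox1, was at 21.6 ± 1.09 CPM at time 0, 22.4 ± 0.949 CPM at 12 hours and 12.5 ± 1.95 CPM at 24 hours, a log2 change of -0.78 ± 0.10 (edgeR adjusted p = 9.58e-06). Crebbp, a coactivator that acetylates NRF2, fell by 1.02 on the log2 scale (SE 0.05, edgeR adjusted p = 1.5e-09), or by 0.64 with the correction for length and GC content. All 3 libraries of 24 hours lay on the same side of all 3 of time 0 for these 4 genes, beside 74.0% of all tested genes. The 4 were named because they were called in this comparison, so the separation adds nothing to the calls. At 12 hours, none of the 13 was called, and Maff, Sqstm1, Nfe2l1 and Mafg were higher on the adjusted p alone, by 0.32, 0.29, 0.36 and 0.22. These 4 of 13 stand beside 10.3% of all tested genes on the adjusted p alone, 6.85% higher and 3.47% lower. Nfe2l1 and Mafg, named after their values were seen, were lower than time 0 at 24 hours, by -0.57 (edgeR adjusted p = 2.75e-06) and -0.39 (edgeR adjusted p = 1.34e-05), short of 1.5-fold. Nfe2l1, a factor related to NRF2, was at 368 ± 5.76, 469.8 ± 15.1 and 247 ± 27.0 CPM at 0, 12 and 24 hours (SD, n = 3), and Mafg, another small MAF, at 96.6 ± 4.19, 112.5 ± 2.13 and 73.8 ± 4.05 CPM. At 24 against 12 hours both were called lower, Nfe2l1 by -0.91 (edgeR adjusted p = 2.43e-08) and Mafg by -0.59 (edgeR adjusted p = 5.6e-08). The call of Mafg was lost with the length and GC correction (-0.31) and with upper-quartile factors (-0.57). It was also lost without 12-hour replicate 1, 24-hour replicate 1 and 24-hour replicate 3, at -0.58, -0.57 and -0.56. Against time 0 the 24-hour values of Nfe2l1 and Mafg were -0.31 and -0.11 with the length and GC correction and -0.80 and -0.61, past 1.5-fold, with total counts, and Nfe2l1 was also called without 24-hour replicate 2 (-0.63) or 3 (-0.61).

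Among 18 tested genes often named as further NRF2 targets, 3 were called higher and 2 lower at 24 hours, and the list median was 0.03. With total counts 1 was called higher and 3 lower, with a median of -0.19, beside 698 higher and 3008 lower of all 11444 tested genes. With the correction for length and GC content 4 were called higher and 2 lower, beside 1510 higher and 1526 lower of all tested genes. Tkt, named after its value was seen, was the gene gained there (0.91, or 0.55 with TMM factors). Osgin1 (0.87), Abcc1, which exports glutathione conjugates (0.74), and Me1, which makes NADPH (0.69), were higher, but Abcc1 (0.52) and Me1 (0.47) fell short of 1.5-fold with total counts. Aox1, an aldehyde oxidase (-1.12), and Abcc4, another exporter (-0.88), were lower. Slc7a11, the cystine carrier that supplies glutathione synthesis, was not called: it had 125 ± 12.7 CPM at time 0, 132 ± 9.38 CPM at 12 hours and 116 ± 4.13 CPM at 24 hours (SD, n = 3). No gene of this list was called at 12 hours.

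Of 24 tested genes that use or turn over glutathione, 3 were called higher and 2 lower at 24 hours. With total counts 3 were called higher and 5 lower, beside 698 higher and 3008 lower of all 11444 tested genes. The genes gained there were Glrx5 (-0.59), Gstm1 (-0.61) and Gsto1 (-0.59). With the correction for length and GC content 4 were called higher and 1 lower, with Chac2 (0.76) gained, beside 1510 higher and 1526 lower of all tested genes. These 4 gained genes are named after their values were seen. Gpx1, a glutathione peroxidase, had 59.1, 59.6 and 56.2 CPM at time 0, 68.5, 70.1 and 65.4 CPM at 12 hours and 142, 145 and 154 CPM at 24 hours. The 3 times were separate, and the log2 change at 24 hours was 1.33 ± 0.05 (edgeR adjusted p = 8.28e-11). Gpx4, which reduces lipid peroxides, rose by 0.99 ± 0.04 (edgeR adjusted p = 2.76e-10), from 222 ± 4.91 to 442 ± 10.9 CPM, and Gpx8 rose by 0.81 ± 0.05 (edgeR adjusted p = 1.58e-08). Gpx4 has processed copies in the genome, and whether reads were split between them was not tested. Gsta4, a glutathione transferase (-0.63), and Oplah, an enzyme of glutathione turnover (-0.62), were called lower. Gsta4 was at -0.56 without time 0 replicate 1, and Oplah at -0.50 and -0.55 without time 0 replicate 2 and 3 and at -0.28 with the correction for length and GC content, which ended the calls.

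Not all glutathione peroxidases moved alike. Gpx3, named after its value was seen, had 1158, 934 and 898 CPM at time 0, 938, 987 and 963 CPM at 12 hours and 781, 750 and 852 CPM at 24 hours, and was lower by a log2 difference of -0.33 ± 0.08 (edgeR adjusted p = 0.00264), short of 1.5-fold, or of -0.55 with total counts. Its 24-hour libraries lay below all others. Of the 24 tested genes, 15 had positive and 9 negative values, with a median of 0.20, beside -0.02 over all tested genes. With total counts the list median was -0.02.

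Of 19 tested genes for superoxide, peroxide and thioredoxin enzymes, 4 were called higher and 2 lower at 24 hours (median 0.24, or 0.02 with total counts). Sod1, the cytosolic superoxide dismutase, went from 246 ± 0.316 to 405 ± 1.35 CPM, a log2 change of 0.72 ± 0.04 (edgeR adjusted p = 1.74e-09), in contrast to the mitochondrial Sod2, which was not called. Msrb3 (0.80), Sesn2 (0.76) and Txnl1 (0.60, named after its value was seen) were also higher. With total counts the values of Sod1 (0.50), Msrb3 (0.58), Sesn2 (0.54) and Txnl1 (0.38) were all under 1.5-fold. In that setting 0 of the list were called higher and 5 lower, beside 698 higher and 3008 lower of all 11444 tested genes. The gained genes were Txnrd3 (-0.61), Sesn3 (-0.72) and Msrb2 (-0.76), named after their values were seen. Txnl1 also fell short without 24-hour replicate 2 (0.58) and with the length and GC correction (0.46). Txnip, an inhibitor of thioredoxin, fell from 528 ± 27.6 to 260 ± 36.1 CPM (-1.02 ± 0.08, edgeR adjusted p = 6.63e-08), and Sesn1 fell by 0.87 on the log2 scale.

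Of 13 tested genes of heme and iron handling, 3 were called higher and 0 lower at 24 hours (median 0.20, or -0.02 with total counts). Slc11a2, an importer of ferrous iron, was the only gene of the 6 lists called at 12 hours. It had 21.8, 26.6 and 23.9 CPM at time 0, 54.4, 58.4 and 51.2 CPM at 12 hours and 62.9, 66.0 and 57.5 CPM at 24 hours. Both later times lay above time 0, with log2 changes of 1.18 ± 0.06 at 12 hours (edgeR adjusted p = 7.51e-10) and 1.37 ± 0.07 at 24 hours (edgeR adjusted p = 2.57e-09). Blvrb, which reduces biliverdin, the product of heme oxygenase (0.75), and Fth1, the ferritin heavy chain (0.63), were called higher at 24 hours, but had 0.52 and 0.40 with total counts. Fth1 has processed copies in the genome, and whether reads were split between them was not tested.

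Only 3 of 12 genes for NADPH oxidases and other sources of superoxide were tested in the comparisons with time 0. Xdh, xanthine dehydrogenase, fell from 23.9, 23.3 and 24.3 CPM at time 0 to 18.7, 20.4 and 18.3 CPM at 12 hours and 6.23, 6.18 and 6.91 CPM at 24 hours. The times did not overlap, and the log2 change at 24 hours was -1.89 ± 0.08 (edgeR adjusted p = 3.48e-10). Ncf1, a subunit of the phagocyte oxidase, was called lower (-0.77 ± 0.19, edgeR adjusted p = 0.0032) at 1.35 to 3.41 CPM, but had -0.55 without 24-hour replicate 2.

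**Figure D4:**
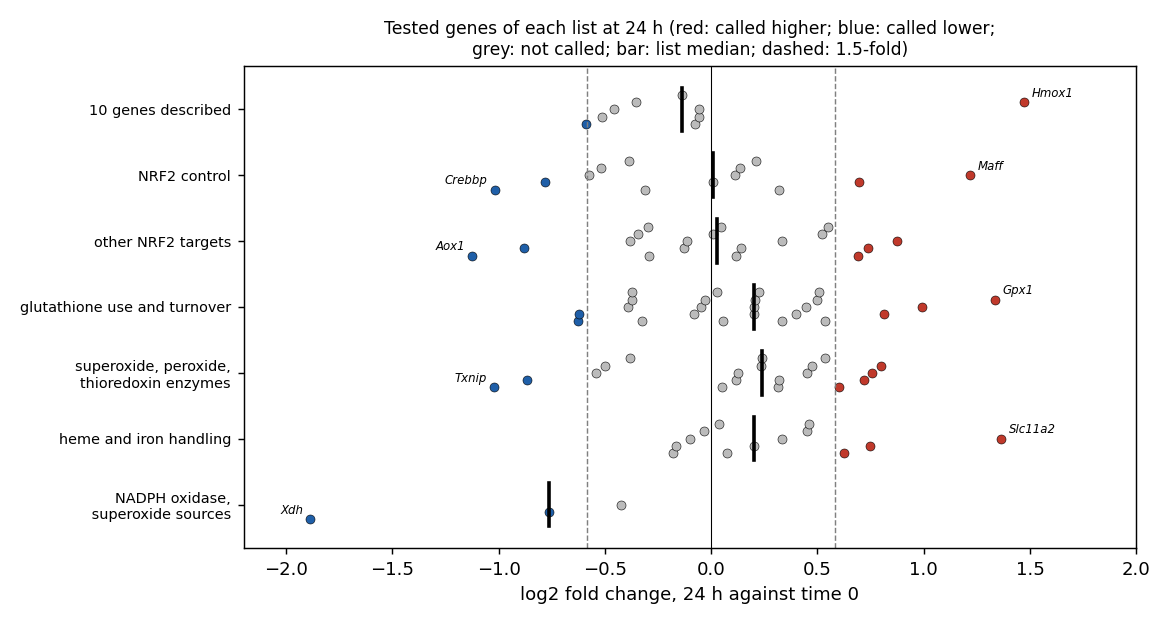
Log2 fold changes at 24 hours against time 0 (horizontal axis) of each tested gene of the 10 described and of the 6 other lists (rows). Red and blue points were called higher and lower, grey points were not called, bars are list medians and dashed lines mark 1.5-fold. Genes beyond a log2 change of 1 are named; called genes lie on both sides in every list but the heme and iron list, with 3 higher and 0 lower, and the NADPH oxidase list, with 0 higher and 2 lower.

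The genes whose pattern over the 9 libraries was most like each of the 9 tested genes were found from the root mean square difference of centered log2 CPM among 11271 genes. Nearest to Hmox1 were Actg1, a cytoplasmic actin (0.133), and Csrp1 (0.141), at a distance larger than for any other of the 9 genes. Gsr was closest to Emc8 (0.0254) and Fbrs (0.0267), and Srxn1 to Zfp746 (0.0223) and Poldip3 (0.0317). The nearest patterns to Gclc were those of Atp10a (0.0370) and Egfr, the epidermal growth factor receptor (0.0423), and to Gclm those of Srm, spermidine synthase (0.0320), and Osbpl7 (0.0323). Nfe2l2 was nearest to Camk1d (0.0442) and Traf6 (0.0452), Keap1 to Kat7 (0.0263) and Rrp7a (0.0269), Txnrd1 to Gsk3a (0.0260) and Apeh (0.0286), and Sod2 to Ipo9 (0.0264) and Ptges3 (0.0300). None of the nearest genes was itself among the 10 described.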

How the data were processed

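RNA of 9 MyC-CaP wells was sequenced by the authors as TruSeq mRNA libraries with paired-end reads, which they trimmed with Cutadapt, aligned with STAR to GRCm38.p6 and counted per gene with featureCounts. The deposited values are raw counts of 15384 genes, without normalization, and the strand setting of the counting is not given in the sources used here. Total counts per library were 41881191 to 52993821, and intervals on small counts cover counting error only. Replicate libraries differed beyond sampling noise in all pairs (chi-square per degree of freedom 3.41 to 17.5), so each was counted as 1 sample.

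The 2 times of each of 3 comparisons were fitted on the whole table in R 4.3.3 with edgeR 4.0.16 (filterByExpr, TMM factors, quasi-likelihood test, Benjamini-Hochberg adjustment over all tested genes). Genes with an adjusted p of 0.05 or less and a change of at least 1.5-fold were called. The SE of a log2 fold change was computed from the F statistic, and CPM were scaled over the 9 libraries. Exon lengths, GC content and positions come from GENCODE M21, which holds 99.93% of the genes of the table and stands in place of the authors' M24 annotation. Alternatives were DESeq2 1.42.0, limma 3.58.1 (voom), RLE and upper-quartile factors, total counts, a minimum of 10 counts per library or no filter at all, 1 fit over the 9 libraries, the replicate number as a block, loess offsets for length and GC content (span 0.3) without and with the block, the adjusted p alone, and leaving out each library. The calculations were tested on simulated data.

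The 10 genes and the 6 lists were chosen with earlier results of these data known. Of each list the text names up to 3 called genes with the highest and up to 3 with the lowest log2 fold change at each later time against time 0, with a mean of at least 1 CPM. For each of the 10 genes but Nqo1, which was not tested, it names the 2 tested genes with the nearest pattern (prior count of 2). The motifs were TGACNNNGC, TGANTCA and NF-kB, and TGAGNNNGC was added later. Gpx7, Slc40a1 and Cyba were not analysed here.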

Additional observations from a re-analysis of the deposited data

Results flagged for a closer look

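The log2 fold change of Hmox1 differed between the 12-hour and the 24-hour comparison with time 0. It was 0.26 at 12 hours and 1.47 at 24 hours, and the direct test of 24 against 12 hours gave 1.24 ± 0.11 (edgeR adjusted p = 4.46e-07), with all 3 libraries of 24 hours above all 3 of 12 hours. Its cause was not tested.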

How the results depend on the processing

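The count of the 9 genes called at 12 hours against time 0 was 0, or 2 on the adjusted p alone. At 24 hours against time 0 it was 2, and it was 1 with DESeq2, RLE or upper-quartile factors, where Gsr fell short of 1.5-fold, 4 with total counts, where 32.4% of all tested genes were called (698 higher, 3008 lower), 6 on the adjusted p alone and 1 to 2 when each library was left out in turn. At 24 against 12 hours it was 1, and it was 3 with total counts, beside 29.1% of all tested genes (484 higher, 2830 lower), 2 with the length and GC correction, without and with the replicate block (23.2% and 23.0% of all tested genes), 7 on the adjusted p alone and 1 to 2 when each library was left out. Gsr was the gene gained with the length and GC correction (-0.61). Same-numbered libraries did not deviate together (mean correlation -0.03, -0.08 and 0.03 in the 3 comparisons), and a replicate block left these counts at 0, 2 and 1. No called value changed sign. Reads of Keap1 and Gclm may be shared with overlapping genes, and Nqo1 was tested only with no filter on low counts, where the counts were 0, 2 and 1 of 10 genes without it being called. Where leaving out a library left 2 in a group, that group shared the estimate of spread across genes.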
